A study of Mus musculus with 19 samples.

Results

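The large subunit of the cytoplasmic ribosome was followed through the mRNAs of 46 genes for its proteins, in ribosome-bound RNA of D1 and D2 spiny projection neurons of the mouse striatum. The genes were chosen by symbol, from Rpl3 to Rplp2, with pseudogenes left out, and all 46 were found among the 39017 genes of the deposited tables. The old D1 group came from female mice of a Drd1::EGFP-L10a line aged 2 years and the young D1 group from the same line at 42 days. The old D2 and young D2 groups came from female mice of a Drd2::EGFP-L10a line at those ages. Both lines are given with a C56BL/6J background, and each of the 4 groups holds 4 libraries, which the design text calls biological replicates. Every animal therefore carries a transgene whose product is a large subunit protein, L10a, fused to a green fluorescent protein. The tag is made wherever the Drd1 or Drd2 regulatory sequence of the transgene is active, so the RNA stands for those cells and not for all of the striatum. In translating ribosome affinity purification (TRAP), tagged ribosomes are pulled down with the mRNA they hold. A further 3 samples, ribosome profiling of the fibroblast line NIH-3T3, are not analysed here.

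The large subunit joins amino acids at its peptidyl transferase centre, passes the new chain out through an exit tunnel, and receives elongation factors on a flexible stalk of acidic P proteins. Its proteins are made in the cytoplasm, carried into the nucleolus, and built onto ribosomal RNA with the help of assembly factors. Their mRNAs are among the most abundant in a cell and typically begin with a C followed by a run of pyrimidines, the 5′ terminal oligopyrimidine motif. Through that motif their translation is tied to growth signals by way of mTOR and the RNA-binding protein LARP1. Neurons hold ribosomes in dendrites as well as in the cell body, and spiny projection neurons of the D1 and D2 kinds are told apart by the dopamine receptor they carry.

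Libraries held 27484038 to 70903004 assigned fragments, of which 135879 to 358471 fell on the 46 genes. Drd1 stood at 319.8 to 610 TPM in old D1 and 250 to 320 TPM in young D1 libraries, against 53.4 to 91.8 TPM in old D2 and 5.11 to 11.3 TPM in young D2 libraries. Drd2 stood at 2395 to 5717 TPM in old D2 and 2602 to 3668 TPM in young D2 libraries, and at 1.55 to 48.5 TPM in D1 libraries of either age. The summed level of 6 oligodendrocyte markers was 75.6 to 353 TPM over all 16 libraries. That of 6 astrocyte markers was 10.5 to 84.7 TPM and that of 6 microglial markers 0 to 12.2 TPM. The part of these glial RNAs in the results was not tested. The old D1 libraries stood apart from the other 12 in several properties. Fragments averaged 151 to 164 bases in old D1 libraries and 170 to 195 bases in the others. Their gene levels, taken as deviations from the mean of all libraries, fell with GC content across genes (Spearman's rho -0.24 to -0.15), while rho was 0.05 to 0.24 in the other 12. A single gene, Gm42418, took 4.45 to 5.41% of counts in old D1 and 9.76 to 18.2% in the other libraries, and its part in the results was not tested. The index sequence of the 4 old D1 libraries ends in a stretch used in no other group, so index and age cannot be told apart in D1 neurons.

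Start sites were looked at first, since the pyrimidine run is the feature for which these mRNAs are known. The RefSeq promoter table (GRCm38.p6) held 35 of the 46 genes. A C at the annotated first base followed by at least 4 bases that are each C or T (read on the transcribed strand only) was found in 7 of the 35, which is 20%, against 3.01% of all 27025 genes in the table. Within 10 bases of the annotated start such a run began in 21 of the 35, or 60.0%, against 34.4% of all genes. The 7 windows are shown from 30 bases before to 14 bases after the first base, with the run at the start in capitals; coordinates follow each name.
Rpl14 at chr9:120571487-120571531 (+): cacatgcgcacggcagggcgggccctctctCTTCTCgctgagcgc
Rpl15 at chr14:18270972-18271016 (-): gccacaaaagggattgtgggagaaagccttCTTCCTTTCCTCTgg
Rpl28 at chr7:4792935-4792979 (+): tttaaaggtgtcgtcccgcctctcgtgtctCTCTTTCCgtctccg
Rpl35 at chr2:39005117-39005161 (-): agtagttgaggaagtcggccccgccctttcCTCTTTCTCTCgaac
Rpl35a at chr16:33056452-33056496 (+): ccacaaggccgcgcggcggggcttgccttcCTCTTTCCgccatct
Rpl38 at chr11:114668550-114668594 (+): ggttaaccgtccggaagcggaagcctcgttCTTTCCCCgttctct
Rplp2 at chr7:141447621-141447665 (+): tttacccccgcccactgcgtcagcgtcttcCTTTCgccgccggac
The run was 5 bases long in Rplp2 and 13 in Rpl15. These 7 genes did not move alike with age in D1 neurons: fitted log2 changes ran from -2.19 for Rplp2 to 0.29 for Rpl15, with a median of -0.61, and the median of the 28 genes without the run at the start was -0.21. An annotated start can lie a few bases from the one used in these neurons, which the files cannot show.

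The 46 mRNAs together made up 1.54 to 2.03% of all TPM in old D1, 1.96 to 2.36% in young D1, 1.80 to 2.13% in old D2 and 1.69 to 2.22% in young D2 libraries. Summed TPM was 15461, 15423, 20288 and 18997 in old D1 libraries, against 22640, 19630, 21878 and 23586 in young D1 libraries. It was 17960, 21286, 18394 and 18659 in old D2 libraries, against 16859, 20583, 22197 and 20524 in young D2 libraries. Each pair of groups overlapped in this sum, and the old D1 mean was 0.80 of the young D1 mean, while the old D2 mean was 0.95 of the young D2 mean. Without Rpl41, the D1 sums were 14062 to 18303 TPM in old and 16623 to 19226 TPM in young libraries. In bulk RNA of this kind, fewer cells of a type and less RNA per cell cannot be told apart, and a share of TPM says nothing about ribosome number. The small subunit proteins, 33 genes fixed as a related list, summed to 9994 to 13972 TPM in old D1 and 14723 to 20069 TPM in young D1 libraries, which did not overlap.

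Levels differed widely among the 46. Rpl41, which encodes the shortest of these proteins, was the most abundant with a mean of 2377 TPM over the 16 libraries, followed by Rpl31 (781 TPM), Rpl13a (766 TPM) and Rpl36 (742 TPM). For Rpl13a, 78.7 to 99.5% of the TPM of a library lay in isoforms with no match in the annotation used. Group means of its coding isoforms alone were 23.39 to 72.45 TPM. In 15 genes the mean was above 500 TPM, in 24 it was above 200 and up to 500 TPM, and in 7 it was 200 TPM or less. The lowest was Rplp0, with 50.5 TPM, although Rplp1 and Rplp2, whose proteins sit on the same stalk, had means of 536.5 and 686 TPM. The 46 genes lie on 17 chromosomes, with Rpl10, Rpl36a and Rpl39 on X. All passed the filter on low counts in the fit over 13926 genes, and Rpl34 was listed at 0 in old D1 library 4.

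**Figure D1:**
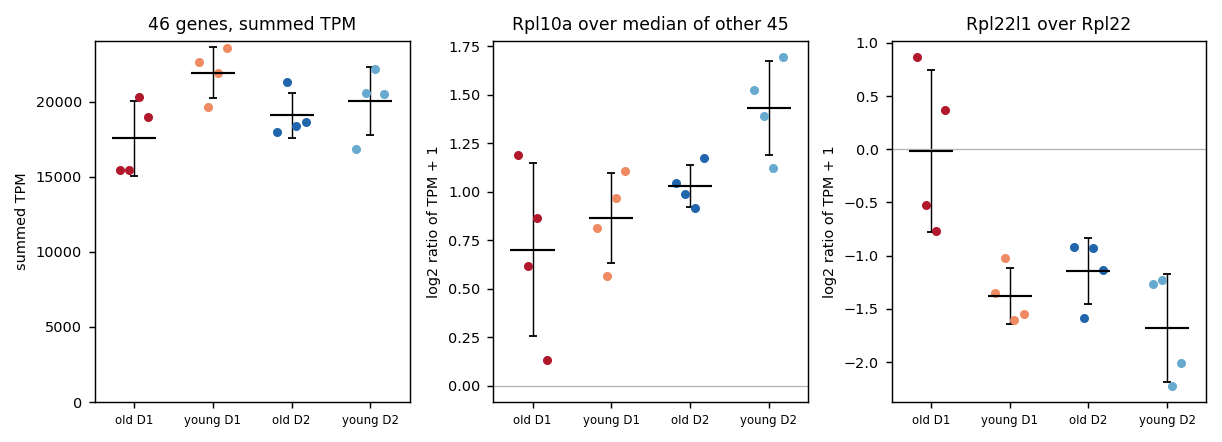
Points are libraries, bars the mean and SD of 4 libraries per group; the left panel shows summed TPM of the 46 genes, the middle and right panels log2 ratios of TPM + 1. The summed level overlaps in every pair of groups, and Rpl22l1 over Rpl22 runs from -0.76 to 0.87 in old D1, above the young D1 range of -1.60 to -1.02.

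Rpl10a (chr17:28328471-28331033, plus strand, GRCm38) encodes L10a, the protein of the L1 stalk, where spent tRNA leaves, and the one that carries the tag. Its level was 642, 411, 620 and 313 TPM in old D1 libraries, against 715, 455, 715 and 717 TPM in young D1 libraries. These groups overlapped, and the fitted log2 change was -0.48 (SE 0.22, adjusted p = 0.167); with each library's trends over GC content and length removed it turned to 0.87 (adjusted p = 0.0282). In old D2 libraries it was 624, 696, 635 and 680 TPM, against 747, 808, 795 and 1068 TPM in young D2 libraries. All 4 old D2 values lay below the lowest young D2 value, but the log2 change of -0.46 (SE 0.22) was not called (adjusted p = 0.869). The test of the difference of these age changes gave a log2 of -0.02 (SE 0.31, adjusted p = 0.99), or 1.31 with those trends removed (adjusted p = 0.06).

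Set against the median of the other 45 genes in the same library, Rpl10a was 0.86 ± 0.23 higher on the log2(TPM + 1) scale in young D1 and 1.43 ± 0.24 in young D2 libraries (SD, n = 4 each). The difference of -0.57 had p = 0.0286 in an exact two-sided permutation test, the smallest that 4 against 4 allows, and 0.114 after adjustment over the 4 pairs of groups. The same ratio was 0.70 ± 0.45 in old D1 libraries, and its difference of -0.16 from young D1 had an exact adjusted p = 0.6. In old D2 libraries it was 1.03 ± 0.11, a difference of -0.40 from young D2 with an exact adjusted p = 0.114. No pair of groups passed the threshold for this ratio. Whether transcripts of the transgene were counted as Rpl10a is not given in the sources used here.

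With age in D1 neurons, 10 of the 46 mRNAs fell and 2 rose at an adjusted p under 0.05, together 26.1% against 10.8% of all genes. The falls were led by the stalk proteins Rplp2 and Rplp1 and by Rpl34, and the rises were Rpl4 and Rpl27a. Of all 13926 genes tested, 5.44% fell and 5.39% rose, so the share of the 46 that fell (21.7%) was above that background and the share that rose (4.35%) was near it. The median log2 change of the 46 was -0.29, with quartiles of -0.94 and 0.20, beside a median of -0.06 over all genes, and 31 of the 46 had a change below 0. The 5 markers of spiny projection neurons summed to 3242 to 3844 TPM in old D1 and 4414 to 5595 TPM in young D1 libraries, without overlap. The 6 D1 markers summed to 4597 to 7381 TPM in old D1 and 2459 to 3229 TPM in young D1 libraries, mostly from 1 gene; 1 of the 6 was called. The part of either in the result was not tested. Removing each library's trend over GC content and length ended all 10 falls: 13 of the 46 then rose, 0 fell, and the median became 0.50. The same step moved the median of all genes to 0.37, with 1212 genes higher and 246 lower (8.70% and 1.77%) in place of 750 and 758. Relative to all genes, the median of the 46 was thus -0.23 as counted and 0.13 with the trends removed. Under limma voom with library weights this relative median was 0.11.

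**Figure D2:**
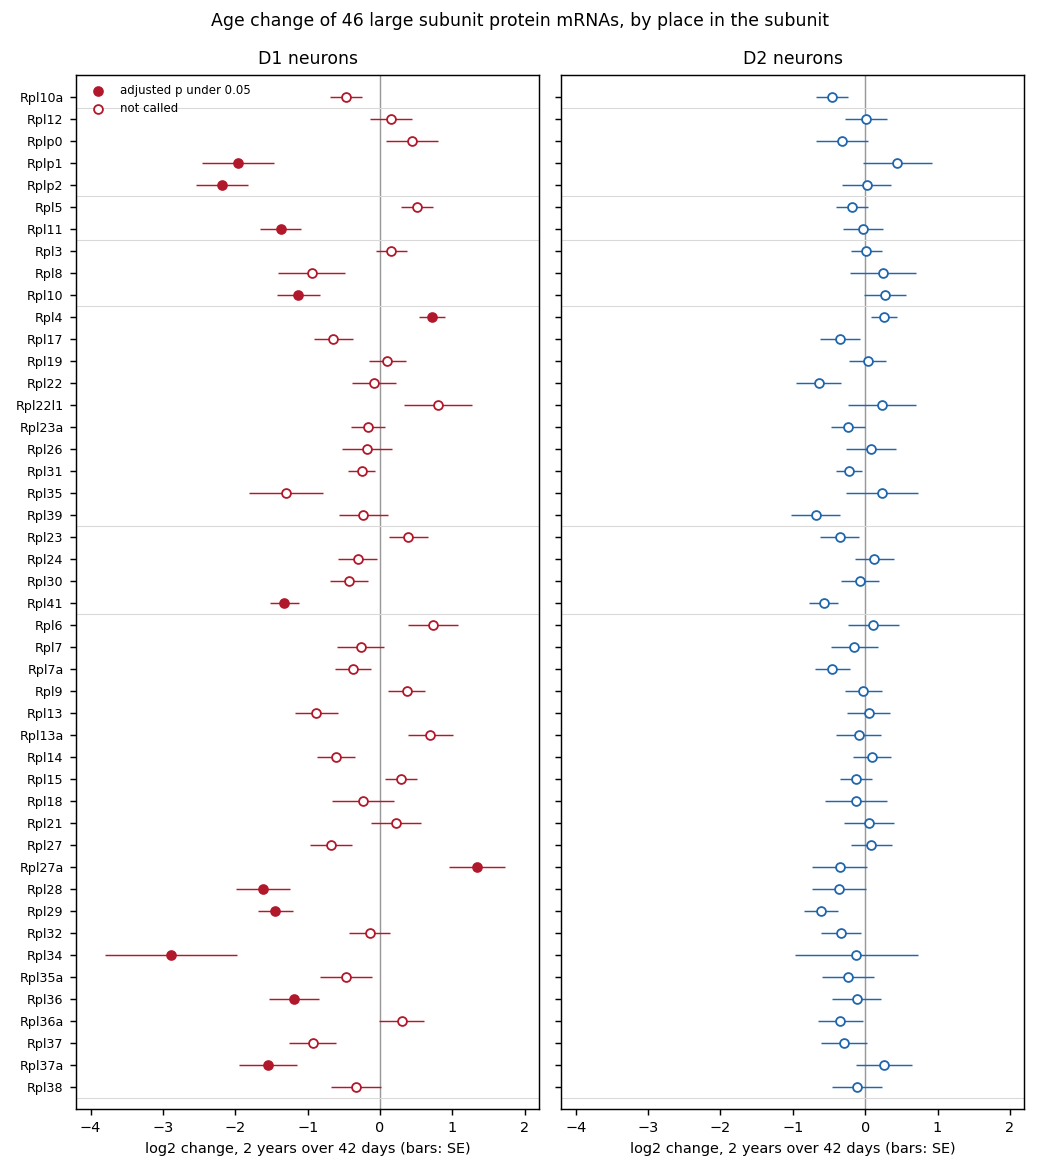
Fitted log2 change from 42 days to 2 years of each gene in D1 (left) and D2 neurons (right), with SE bars; filled points passed an adjusted p of 0.05, and thin lines part the places in the subunit, in the order L1 stalk, P stalk, 5S particle, peptidyl transferase region, tunnel, bridges and other proteins. In D1 the changes run from -2.89 to 1.34 with 12 filled points, and in D2 from -0.69 to 0.44 with none.

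The P stalk recruits and activates the elongation factors; Rplp0 anchors it, Rplp1 and Rplp2 form its flexible ends, and Rpl12 lies at its base. Rplp2 (chr7:141447370-141451585, plus strand, GRCm38) stood at 121, 153, 206 and 233 TPM in old D1 libraries, against 980, 595, 584 and 1029 TPM in young D1 libraries. The highest old value was below the lowest young one, and the log2 change was -2.19 (SE 0.36, adjusted p = 7.39e-04). Rplp1 stood at 112, 122, 245 and 284 TPM in old D1, against 1060, 464, 259.8 and 1150 TPM in young D1 libraries. Here the ranges overlapped, because young library 3 fell among the old ones, and the log2 change was -1.97 (SE 0.49, adjusted p = 0.0155). Rplp0 was not called: it stood at 68.3, 60.9, 77.2 and 69.3 TPM in old D1, against 39.6, 39.4, 75.9 and 40.1 TPM in young D1 libraries. Its log2 change was 0.44 (SE 0.36, adjusted p = 0.472), and young library 3 lay within the old range while the other 3 young libraries lay below it. Rpl12 ran from 210 to 477 TPM in old D1 and from 211 to 289 TPM in young D1 libraries, with a log2 change of 0.15 (SE 0.29, adjusted p = 0.809). With the trends over GC content and length removed, the changes were -0.60 for Rplp2, -0.11 for Rplp1, 1.47 for Rplp0 and 1.63 for Rpl12. Of these, Rplp0 (adjusted p = 0.0338) and Rpl12 (adjusted p = 0.00303) then passed the threshold and the other two did not.

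Rpl5 and Rpl11 enter the subunit together with 5S ribosomal RNA, and outside it they bind Mdm2, the brake on p53. Rpl11 (chr4:136028265-136053428, minus strand, GRCm38) was at 168, 160, 203 and 68.6 TPM in old D1, against 416, 468, 371 and 342 TPM in young D1 libraries. All old values were below all young ones, with a log2 change of -1.37 (SE 0.28, adjusted p = 0.00438). Its partner Rpl5 was at 334, 526, 442 and 285 TPM in old D1, against 212, 278, 336 and 148 TPM in young D1 libraries. That change had the opposite sign (log2 0.51, SE 0.22), overlapped between groups and was not called (adjusted p = 0.142). The paired proteins of the 5S particle thus had mRNAs with changes of opposite sign as counted; with the trends removed Rpl11 was at -0.43 and Rpl5 at 0.57, neither called.

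Near the peptidyl transferase centre, Rpl10, whose protein joins the subunit late in the cytoplasm, fell. It was at 393, 339, 389 and 183 TPM in old D1, against 532, 591, 486 and 946 TPM in young D1 libraries, without overlap (log2 -1.13, SE 0.29, adjusted p = 0.0185). Rpl3, the protein nearest that centre, ran from 324 to 761.9 TPM in old D1 and from 356 to 572 TPM in young D1 libraries, with a log2 change of 0.16 (SE 0.22, adjusted p = 0.714). Rpl8 ran from 35.2 to 147 TPM in old D1 and from 63.7 to 211 TPM in young D1 libraries, and its log2 change of -0.95 (SE 0.46) was not called (adjusted p = 0.193).

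Of the 10 genes for proteins of the exit tunnel and its rim, 1 rose and 0 fell with age in D1 neurons. The riser was Rpl4, whose long loop lines the tunnel: it was at 446, 509, 649 and 409 TPM in old D1, against 330, 306, 332 and 203 TPM in young D1 libraries. Old and young values did not overlap, and the log2 change was 0.72 (SE 0.18, adjusted p = 0.0147), rising to 1.12 with the trends removed. Rpl35, at the rim where the signal recognition particle docks, was at 23.5 to 154 TPM in old D1 and 161 to 274 TPM in young D1 libraries, without overlap, and was not called (log2 -1.31, SE 0.51, adjusted p = 0.105). The other 8 had changes from -0.65 (Rpl17) to 0.80 (Rpl22l1), none of them called.

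Among the genes for proteins that bridge the subunits, Rpl41 fell and Rpl23, Rpl24 and Rpl30 were not called. Rpl41 (chr10:128548114-128549305, minus strand, GRCm38) was at 1254, 1361, 1985 and 1403 TPM in old D1, against 3471, 3008, 3404 and 4360 TPM in young D1 libraries. The groups were far from overlapping, and the log2 change was -1.33 (SE 0.20, adjusted p = 4.54e-04), the smallest adjusted p of the 46 in this comparison. With the trends removed it was 0.27 (adjusted p = 0.481).

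The remaining 22 proteins sit elsewhere on the subunit; of their genes 5 fell and Rpl27a rose. Rpl27a, whose protein lies deep in the core, was at 478, 369, 377 and 769.8 TPM in old D1, against 152, 185, 389.9 and 80.8 TPM in young D1 libraries. Young library 3 reached into the old range, and the log2 change was 1.34 (SE 0.39, adjusted p = 0.0334), or 2.04 with the trends removed; the call was lost without old D1 library 4 or young D1 library 1, 2 or 4. Rpl29, a surface protein that also binds heparin, was at 221, 163, 300.3 and 177 TPM in old D1, against 615, 444, 538 and 653 TPM in young D1 libraries. The old values were all lower, with a log2 change of -1.45 (SE 0.24, adjusted p = 8.93e-04).

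Rpl34 had the largest fitted fall of the 46: it was at 20.7, 75.1, 40.9 and 0 TPM in old D1, against 406, 117, 95.6 and 312 TPM in young D1 libraries. The groups did not overlap, and the log2 change of -2.89 (SE 0.92) passed with an adjusted p = 0.0486. Without old D1 library 4, the one at 0, the gene remained called. The call was lost without old D1 library 1 or 3 or young D1 library 1, 2 or 4, with adjusted p-values of 0.0596 to 0.118. Rpl36 was at 263, 295, 341 and 574 TPM in old D1, against 896, 697.5, 646 and 1175 TPM in young D1 libraries, without overlap (log2 -1.19, SE 0.35, adjusted p = 0.0327), a call lost without old D1 library 1, 2 or 3 or young D1 library 1 or 4. Rpl28 ran from 226 to 391 TPM in old D1 and from 362 to 635 TPM in young D1 libraries (log2 -1.62, SE 0.38, adjusted p = 0.01). Rpl37a, a zinc-binding protein, ran from 65.3 to 235 TPM in old D1 and from 178 to 478 TPM in young D1 libraries (log2 -1.55, SE 0.40, adjusted p = 0.0182). Both overlapped between groups in TPM and were called. With the trends removed, which moved the median of all genes to 0.37, Rpl36 (1.16) was above that median and Rpl28 (0.003), Rpl29 (0.10) and Rpl41 (0.27) were above 0 but below it, and Rpl34 (-2.02) and Rpl37a (-1.16) kept the largest ones below 0.

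**Figure D3:**
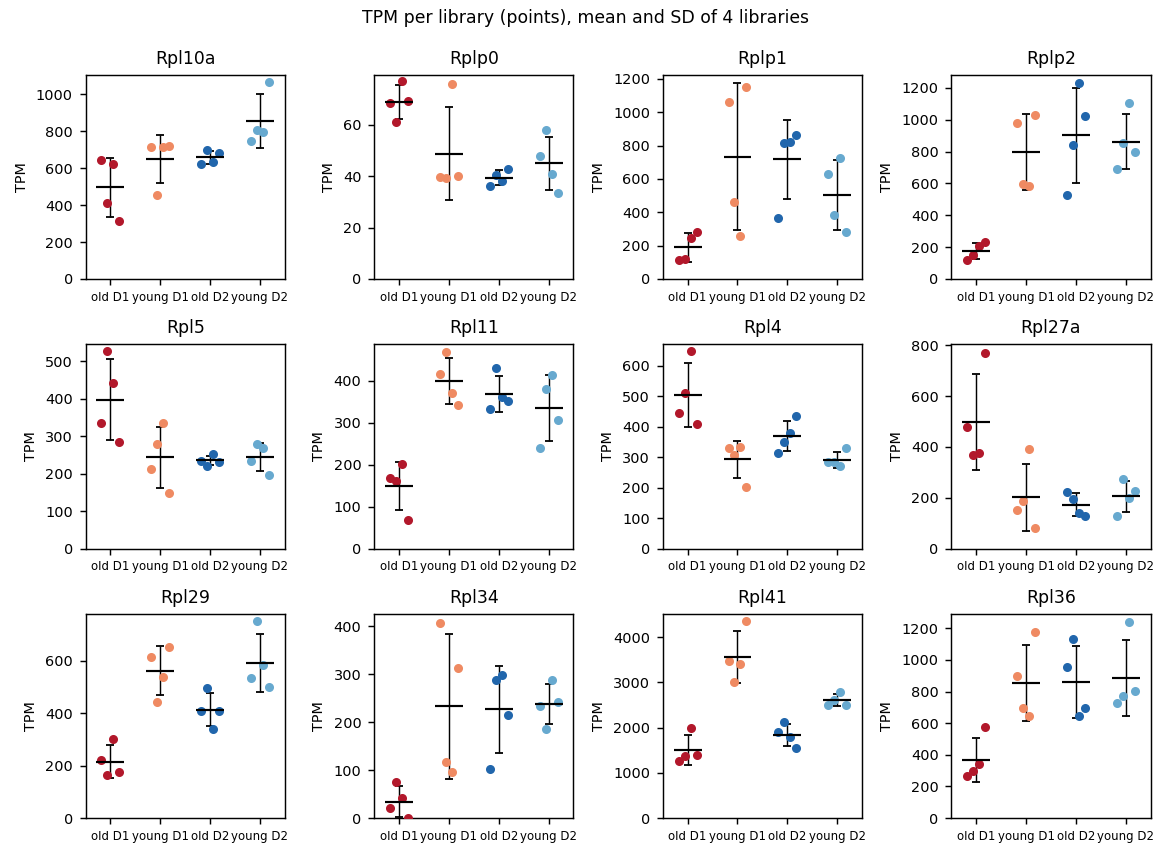
TPM of 12 genes in each library (points) with the mean and SD of 4 libraries per group, on axes from 0. The old D1 points of Rplp2, Rpl11, Rpl29, Rpl34, Rpl41 and Rpl36 lie below every young D1 point, those of Rpl4 lie above, and the D2 groups lie near young D1 for Rplp2 and Rpl11.

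By levels alone, 8 of the 46 had all old D1 TPM values below all young D1 values and 2 (Rpl4 and Rpl6) had them above. Over all genes tested these shares were 7.60% and 6.17%. Among the 46, the SD over genes of log2 deviations from the 16-library mean was 0.61 to 1.53 in old D1, against 0.33 to 0.67 in young D1 libraries, with overlap. The 1.53 was that of old D1 library 4, and the other old D1 values were 0.85, 0.70 and 0.61. This SD was not computed over all genes. Genes with a count numbered 10369 in old D1 library 4, 11628 to 13705 in the other old D1 libraries and 12783 to 15000 in young D1 libraries, and their part in this spread was not tested. Leaving out single libraries left 5 to 14 falls and 0 to 2 rises. The lowest counts, 5 falls and 0 rises, came without young D1 library 4, which ended the calls of Rpl4, Rpl10, Rpl37a and Rplp1 as well as those named above. The most falls came without old D1 library 4, and without it, young D1 library 1 or young D1 library 2 there was 1 rise. Over all genes, leaving out single libraries gave 487 to 1159 falls and 420 to 896 rises. Fitted on the D1 libraries alone, 3 fell (Rpl29, Rpl41 and Rplp2) and 0 rose, against 0.923% and 1.57% of the 12244 genes tested there.

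With age in D2 neurons, none of the 46 was called by edgeR, and none by DESeq2 or any other alternative tried. Of all genes tested, 0.079% were called here, 0.0646% higher and 0.0144% lower. With the trends removed these shares were 0.00718% and 0%, and with coding isoforms alone 0.0655% and 0.0246%. At an unadjusted p under 0.05 there were 3 (Rpl41, Rpl29 and Rpl22), or 6.52% against 5.75% of all genes, a share near the background. Rpl41 was at 1896, 2134, 1786 and 1553 TPM in old D2, against 2506, 2616, 2784 and 2506 TPM in young D2 libraries, without overlap (log2 -0.57, SE 0.20, adjusted p = 0.618). Rpl29 was at 410, 495, 340 and 408 TPM in old D2, against 533, 751, 586 and 502 TPM in young D2 libraries, also without overlap (log2 -0.61, SE 0.24, adjusted p = 0.726). Both genes thus had every old value below every young one in each kind of neuron. The largest fitted differences were -0.69 for Rpl39, a small protein of the tunnel wall, and 0.44 for Rplp1. Rpl39 was at 77.7, 123, 121 and 132 TPM in old D2, against 154, 164, 144 and 234 TPM in young D2 libraries, and Rplp1 overlapped. By levels, 4 genes (Rpl10a, Rpl29, Rpl39 and Rpl41) were lower without overlap and Rpl6 was higher, against 2.64% and 4.43% of all genes.

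Fitted changes were less spread in D2 than in D1 neurons: the median log2 change was -0.12, beside 0.01 over all genes, and the interquartile range was 0.41 in D2 and 1.14 in D1. All genes showed this too, with interquartile ranges of 0.84 in D2 and 1.81 in D1. Rplp2 was at 524, 841, 1229 and 1022 TPM in old D2, against 693, 854, 1104 and 800 TPM in young D2 libraries, and its log2 change was 0.02 (SE 0.34, adjusted p = 1.0). The old D2 libraries held 410.9 to 656 TPM of 6 summed D1 markers, against 133 to 154 TPM in young D2 libraries, mostly from 1 gene. Of the 6, 3 were called higher with age in D2 neurons, where 9 of all 13926 genes tested were. The 6 astrocyte markers summed to 33.4 to 47.9 TPM in old D2 and 10.5 to 14.7 TPM in young D2 libraries, and the part of either in the result was not tested.

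Whether the age changes of the kinds differ was asked with the difference of the changes, which is D1 minus D2. Of the 46 genes, Rplp2 alone was called, lower (log2 -2.21, SE 0.49, adjusted p = 0.0264), against 1.77% of all genes called, 0.84% lower and 0.926% higher. Rplp1 followed at -2.41 (SE 0.68, adjusted p = 0.0713), and Rpl11 at -1.34 (SE 0.39, adjusted p = 0.0805). At an unadjusted p under 0.05 there were 14 of the 46, or 30.4% against 16.9% of all genes. The Rplp2 call was lost without old D2 library 2 or 3, young D1 library 1 or 4, or young D2 library 1, 2 or 4, with adjusted p-values up to 0.0734, and with the trends removed it was -0.64 (adjusted p = 0.565), with 0 of the 46 called against 1.44% of all genes higher and 0.18% lower. With coding isoforms alone it stayed called (log2 -2.16, adjusted p = 0.0274), where 1.03% of all genes were higher and 1.24% lower. Genes called in D1 and not in D2 are otherwise not shown to differ between the kinds.

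In young mice the comparison of D1 with D2 neurons gave no call among the 46, by edgeR or by any alternative; 0.409% of all genes were called, 0.201% higher and 0.208% lower in D1. With the trends removed these shares were 0.144% and 0.115%, and with coding isoforms alone 0.246% and 0.205%. At an unadjusted p under 0.05 there was 1 of the 46, or 2.17% against 6.01% of all genes. It was Rpl41, at 3471, 3008, 3404 and 4360 TPM in young D1, against 2506, 2616, 2784 and 2506 TPM in young D2 libraries (log2 0.64, SE 0.20, adjusted p = 0.394). Its groups did not overlap, and neither did those of Rpl10a, which was lower in young D1; over all genes 2.37% were higher and 3.98% lower in this way. The log2 difference was above 0 in 41 of the 46 genes, with a median of 0.17 beside 0.02 over all genes. Over the alternatives this count ran from 25 (limma on TPM) to 41, with 31 under voom. The genes share libraries and are not independent, and the share of all genes above 0 was not computed. The largest differences were 0.74 for Rplp1 and -0.49 for Rpl22, with adjusted p-values of 0.999 each and overlapping groups.

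At 2 years, 5 of the 46 were higher and 4 lower in D1 than in D2 neurons, together 19.6% against 9.6% of all genes, of which 5.02% were higher and 4.58% lower. This comparison shares its old D1 libraries with the age comparison above. Markers of spiny projection neurons summed to 3242 to 3844 TPM in old D1 and 5791 to 6449 TPM in old D2 libraries, and the 6 oligodendrocyte markers to 75.6 to 190.5 TPM in old D1 and 247 to 353 TPM in old D2 libraries, both without overlap. Their part in the result was not tested. Rpl13a, known in human myeloid cells for a role outside the ribosome in silencing mRNAs, was at 1078, 1295, 1232 and 1756 TPM in old D1, against 730, 565, 366 and 390 TPM in old D2 libraries (log2 1.40, SE 0.32, adjusted p = 0.00894), although its coding isoforms alone gave -0.92 (adjusted p = 0.268). Rpl27a was at 369 to 769.8 TPM in old D1 and 129 to 224 TPM in old D2 libraries, without overlap (log2 1.73, SE 0.39, adjusted p = 0.00927). Rpl36a, on X, was at 508, 794, 804 and 932 TPM in old D1, against 547, 415, 365 and 243 TPM in old D2 libraries (log2 1.15, SE 0.31, adjusted p = 0.0256). Of these, Rpl13a and Rpl27a had separate groups, and in Rpl36a old D1 library 1 fell among the old D2 values.

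Rpl5 (log2 0.71, SE 0.22, adjusted p = 0.0469) and Rpl4 (log2 0.57, SE 0.18, adjusted p = 0.0476) were also higher in old D1, close to the threshold. The lower genes were Rplp2 (log2 -2.14, SE 0.35, adjusted p = 8.78e-04), Rplp1 (log2 -1.66, SE 0.49, adjusted p = 0.0375), Rpl11 (log2 -1.01, SE 0.28, adjusted p = 0.0279) and Rpl29 (log2 -0.76, SE 0.24, adjusted p = 0.048; 0.67 with the trends removed). Rplp2 had the values given above, 121 to 233 TPM in old D1, against 524 to 1229 TPM in old D2 libraries. Rpl34 had the lowest fitted difference (log2 -2.60, SE 0.91) and was not called (adjusted p = 0.0757). With the trends over GC content and length removed, 21 were higher and 0 lower, against 10.9% and 1.90% of all genes, whose median moved to 0.44. With coding isoforms alone 3 were higher and 4 lower (Rpl7, Rpl11, Rplp1 and Rplp2), against 5.36% and 5.17% of all genes. By levels, 5 genes were higher and 8 lower without overlap, against 4.66% and 10.2% of all genes. Each of the 8 libraries, left out in turn, moved the counts of calls, which ran from 2 to 6 higher and from 1 to 7 lower. The lowest, 2 higher and 1 lower, came without old D2 library 2 or 3, and Rpl13a, Rpl27a and Rplp2 were called without any 1 library. Over all genes, these fits gave 326 to 814 higher and 366 to 1059 lower.

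Base composition and length moved with these results inside the family too. Length and GC content were those of the most abundant isoform of each gene with a match in the annotation. These isoforms of the 46 are short, with a median of 731 bases (312 to 2045) against 2456 over all genes tested, and have a median GC content of 51.5% against 50%. Across the 46 genes the D1 age change had a Spearman's rho of -0.42 with GC content and 0.48 with length. These genes share libraries and are not independent, so the values are a description. In D2 the same rho was 0.12 with GC content and 0.09 with length. Rpl36 and Rpl35, at 60.8% and 61.2% GC, are examples of GC-rich short genes with D1 changes of -1.19 and -1.31. Rpl22l1 and Rpl5, at 40.6% and 42.7%, had 0.80 and 0.51. Of these examples only Rpl36 was called. Other genes departed from the trend over GC content: Rpl12 and Rpl18, at 56.7% and 58.3%, had 0.15 and -0.24, and Rpl37a, at 47.1%, had -1.55. For age in D1 neurons, removing the trend over GC content alone gave 8 rises and 1 fall (Rpl37a), against 9.2% and 1.89% of all genes, whose median moved to 0.38. Removing that over length alone gave 14 rises and 1 fall (Rplp2), against 12.2% and 3.42% of all genes, whose median moved to 0.42. Relative to the median of all genes, that of the 46 was -0.14 in the first case and 0.15 in the second. For age in D1 neurons, Rpl4 and Rpl27a were called higher both as counted and with both trends removed, and for D1 over D2 at 2 years Rpl4, Rpl5, Rpl13a, Rpl27a and Rpl36a were. For Rpl13a the trends were read at 1047 bases and 53.6% GC, those of a matched isoform. Most of its TPM lay in an unmatched isoform of 464 bases, so its values with the trends removed do not rest on its main isoform.

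**Figure D4:**
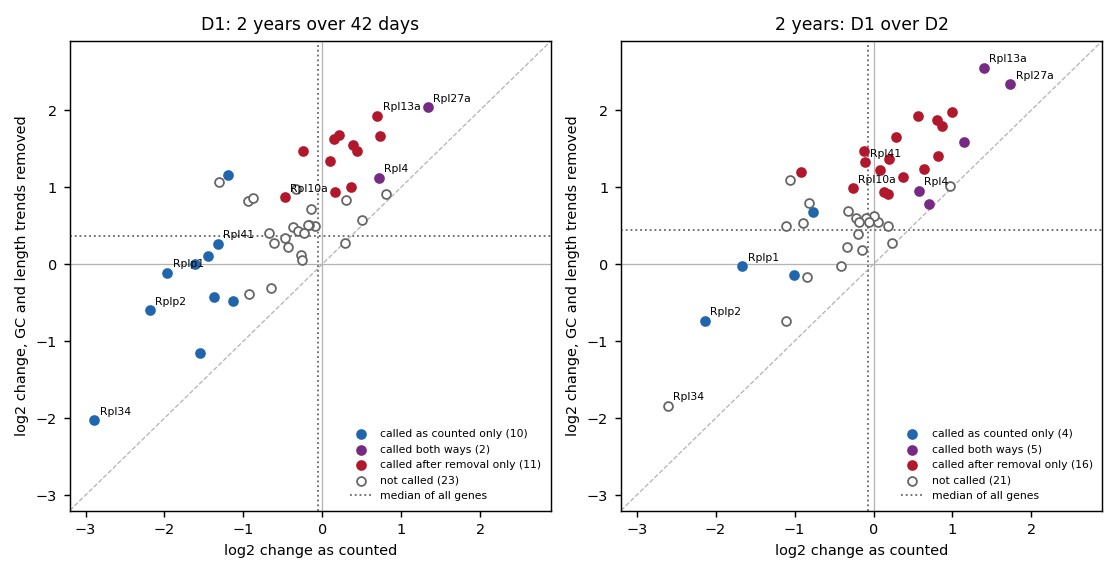
Each point is 1 of the 46 genes: log2 change as counted (x) against the change with each library's trends over GC content and length removed (y), for age in D1 neurons (left) and for D1 over D2 at 2 years (right). Dotted lines mark the median of all genes and the dashed line equality; nearly all points lie above equality, and 10 (left) and 4 (right) genes called as counted were not called after removal.

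Rpl22 and Rpl22l1 are paralogs that can take the same place in the subunit. In D1 neurons Rpl22l1 was at 197, 79.2, 174 and 266 TPM in old, against 116, 115, 112 and 77.3 TPM in young libraries. Rpl22 was at 108, 114, 296 and 206 TPM in old D1, against 298, 235, 341 and 227 TPM in young D1 libraries. Neither gene was called alone (adjusted p = 0.298 for Rpl22l1 and 0.905 for Rpl22). The log2 change was 0.80 for Rpl22l1 and -0.09 for Rpl22, or 0.91 and 0.49 with the trends removed, neither called. The ratio of the genes was taken from TPM and was not computed with the trends removed. The log2 ratio of Rpl22l1 to Rpl22 was 0.87, -0.52, -0.76 and 0.37 in old D1, against -1.35, -1.02, -1.60 and -1.54 in young D1 libraries. All 4 old values were above all young ones, and the means were -0.01 ± 0.76 and -1.38 ± 0.26 (SD, n = 4 each). The difference of 1.37 had p = 0.0286 in an exact two-sided permutation test, the smallest possible, and 0.0571 after adjustment over 4 pairs, so it missed the threshold. In D2 neurons the ratio was -1.14 ± 0.31 in old and -1.68 ± 0.51 in young libraries, a difference of 0.54 with an exact adjusted p = 0.229. Whether these age changes of the ratio differ between the kinds was not tested.

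The isoform tables hold 214 isoforms of the 46 genes: 92 annotated as protein coding, 68 as retained intron, 31 as processed transcript, 5 as targets of nonsense-mediated decay and 18 with no match in the annotation used. In old D1 libraries a large part of the TPM of Rpl6, Rpl7 and Rpl24 was assigned to isoforms not annotated as coding. For Rpl6 that share was 78.8, 90.7, 79.0 and 52.6% in old D1, against 6.51, 23.6, 27.6 and 35.2% in young D1 libraries. For Rpl7 it was 84.4, 44.8, 72.9 and 79.5% in old D1, against 19.6, 17.1, 25.7 and 10.5% in young D1 libraries. For Rpl24 it was 69.2, 71.6, 47.4 and 82.0% in old D1, against 15.5, 39.8, 35.2 and 15.6% in young D1 libraries. None of these 3 overlapped between ages in D1, while in D2 neurons the shares of the same genes were 3.63 to 28.4% in old and 4.43 to 28.8% in young libraries, with overlap.

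Among the 28 genes with isoforms of both kinds and a value in every D1 library, 4 had a higher share in old D1 without overlap (Rpl23a in addition) and 3 a lower one (Rpl10, Rpl13 and Rpl27a). Over all 4565 such genes tested, 4.07% were higher and 5.19% lower. In Rpl10, Rpl13 and Rpl27a the share was under 7% in every D1 library, so the lower ones concern minor isoforms. In D2 neurons 1 of 29 was higher with age (Rpl13) and 0 lower, against 0.883% and 1.11% of all genes. In young D1 against young D2 libraries 0 of 29 differed in this way, against 1.13% and 1.22%. At 2 years 5 of 28 were higher in D1 (Rpl7a in addition) and 3 lower, against 5.45% and 5.15%. Partial shifts were also seen: Rpl21 was at 25.2, 26.8 and 29.1% in 3 old D1 libraries and 0.547% in the other, and Rpl7a reached 80.5% in old D1 library 4 while the other 3 stood at 5.51 to 15.9%. In Rpl18 an isoform with no match in the annotation held 47.3 to 98.9% of TPM in old D1 and 3.07 to 12.8% in young D1 libraries, without overlap. For Rpl13a such isoforms held 96.9 to 99.5% in old D1 and 87.4 to 92.1% in young D1 libraries, also without overlap. Over all genes this was not counted for isoforms with no match. Rpl12, Rpl23 and Rpl35 had most of their TPM in isoforms not annotated as coding in every library, 55.8 to 97.7%, so such a share alone does not mark old D1.

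**Figure D5:**
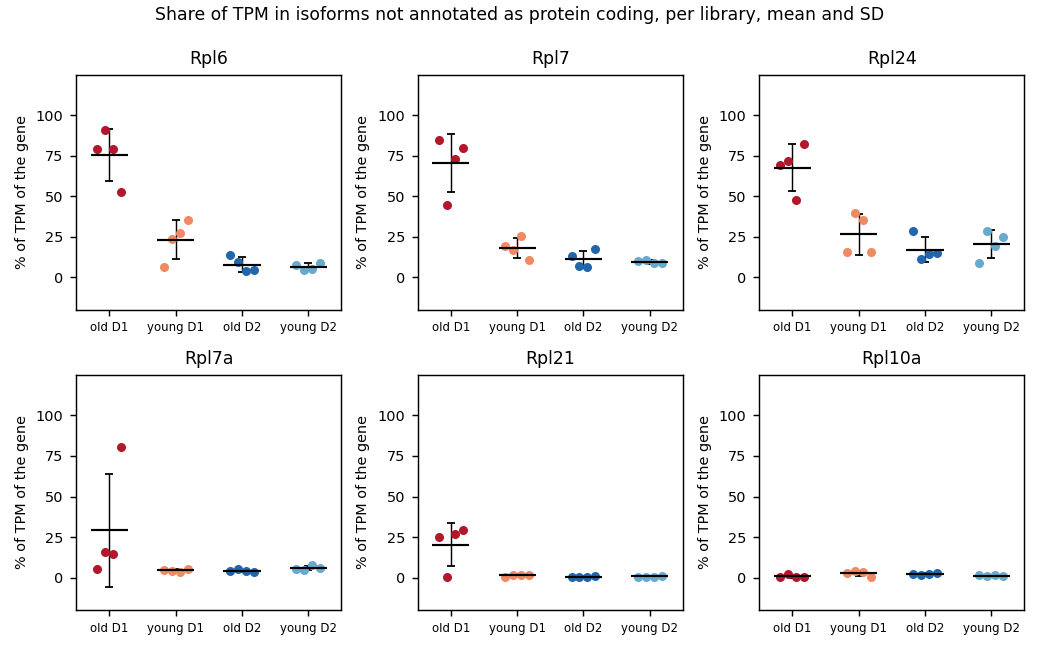
Share of the TPM of a gene in isoforms not annotated as protein coding, per library (points) with mean and SD of 4 libraries, for 6 genes. In Rpl6, Rpl7 and Rpl24 the old D1 points lie above every other point, in Rpl7a and Rpl21 only some do, and in Rpl10a all points are under 4%.

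The isoforms behind these shares keep intron sequence. Rpl6-203, annotated as a retained intron, is 565 bases long with 2 exons and begins inside intron 5 (1195 bases) of the coding isoform Rpl6-201; it was at 366, 559, 442 and 606 TPM in old D1, against 0, 41.7, 72.9 and 90.6 TPM in young D1 libraries. Rpl7-203 is 421 bases long, begins inside intron 5 (553 bases) and ends where Rpl7-201 ends; it was at 228, 50.6, 102 and 324 TPM in old D1, against 26.3, 12.1, 38.2 and 5.22 TPM in young D1 libraries. Rpl24-204 holds all 108 bases of intron 1 and was at 294, 195, 199 and 181 TPM in old D1, against 53.1, 93.3, 117 and 35.3 TPM in young D1 libraries. All 3 isoforms were higher in every old D1 library than in any young one. The junctions kept unspliced in these isoforms, and in those of Rpl21 and Rpl5, are shown as they stand in GRCm38.p6, with the last bases of the intron in capitals and the exon after them.
Rpl6 intron 5 at chr5:121208371-121208410 (+): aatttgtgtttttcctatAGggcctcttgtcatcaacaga
Rpl7 intron 5 at chr1:16101917-16101956 (-): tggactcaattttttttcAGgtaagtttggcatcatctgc
Rpl24 intron 1 at chr16:55966527-55966566 (+): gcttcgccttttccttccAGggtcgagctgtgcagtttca
Rpl21 intron 4 at chr5:146835544-146835583 (+): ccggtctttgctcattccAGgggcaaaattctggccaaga
Rpl5 intron 5 at chr5:107904697-107904736 (+): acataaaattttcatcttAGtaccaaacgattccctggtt
Reads over these junctions are not in the files, so the assignment rests on RSEM's division of fragments among isoforms, and the part of shorter fragments in it was not tested.

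Counting coding isoforms alone, over all genes, kept the D1 age result for the stalk and added genes. There were then 13 falls and 2 rises among the 46, against 6.01% and 5.46% of the 12213 genes tested, and the median was -0.52. Rpl7 (log2 -1.05, SE 0.34, adjusted p = 0.0474) and Rpl24 (log2 -1.40, SE 0.41, adjusted p = 0.0321) fell only in this count. Rpl13a also did (log2 -1.65, SE 0.52, adjusted p = 0.0452), but 96.9 to 99.5% of its old D1 TPM lay in isoforms with no match, so this fall concerns a minor isoform. Rpl6, at 0.73 as counted (SE 0.35, adjusted p = 0.188), was at 0.05 here (SE 0.51, adjusted p = 0.973); old D1 library 4 held 577 TPM of its coding isoforms and the other 3 old libraries 58.0 to 122 TPM. This count was chosen after the data had been seen.

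Many processed pseudogenes share sequence with these genes, and RSEM divides fragments between them. The annotation names 140 pseudogenes after 34 of the 46, and together they took 3.09 to 4.95% of the counts of gene plus pseudogenes in a library. The largest mean shares were 15.6% for Rpl31, 14.5% for Rpl19, 12.1% for Rpl34 and 11.6% for Rpl10a, and pseudogenes with other names are not in these figures. For Rpl34 the share was 9.56 to 62.7% in old D1 and 3.51 to 5.43% in young D1 libraries. Old D1 library 4, which had no count for Rpl34, is not in that range. Adding the pseudogene counts to each gene gave 9 falls and 2 rises with age in D1 neurons, against 5.44% and 5.38% of all genes, and Rpl34 was then not called (log2 -2.32, adjusted p = 0.0972).

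Related genes, in lists chosen with earlier results of these data known, are given for the D1 age comparison. The trends over GC content and length were not removed in these counts. Of all genes tested, 5.44% fell and 5.39% rose. Of the 33 small subunit protein genes 8 fell and 1 rose (median log2 -0.53). Rps26 was at 103 ± 59.6 TPM in old D1 and 490 ± 173 TPM in young D1 libraries (SD, n = 4 each; log2 -2.36, adjusted p = 0.0043). Rps14 (log2 -1.77, adjusted p = 0.0109) also fell, and Rps6, the kinase substrate of the small subunit, rose (777 ± 164 against 367 ± 118 TPM, log2 1.03, adjusted p = 0.0202). The Rps14 call was lost in 5 of 19 alternatives, that of Rps6 in 3 and that of Rps26 in 2.

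Of 30 assembly and export factors of the large subunit, 6 rose and 1 fell (median log2 0.38), against 5.39% and 5.44% of all genes. Rrs1, which helps to seat the 5S particle, was at 65.8 ± 21.4 TPM in old D1 and 8.96 ± 2.06 TPM in young D1 libraries (log2 2.83, SE 0.46, adjusted p = 7.52e-04). The nucleolar proteins Npm1 (928 ± 215 against 342 ± 97.0 TPM; log2 1.24, adjusted p = 7e-04) and Ncl (151 ± 11.9 against 71.9 ± 12.9 TPM; log2 0.98, adjusted p = 0.0023) rose, and Nip7 fell (log2 -1.36, adjusted p = 0.0109). The Nip7 call was lost in 3 of 19 alternatives, that of Ncl in 1, and those of Rrs1 and Npm1 in none. The age change of Rrs1 also differed between the kinds (D1 minus D2, log2 2.95, adjusted p = 0.022), as did that of Rpf2, its partner in seating the 5S particle (log2 2.39, adjusted p = 0.0278).

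Of 18 other RNAs known for a terminal pyrimidine run, 4 rose and 1 fell, against 5.39% and 5.44% of all genes. Nap1l1 (log2 0.84, adjusted p = 0.00342), Gas5 (log2 1.03, adjusted p = 0.0188) and Eif3f (log2 1.15, adjusted p = 0.0223) rose, and Eef1g fell (log2 -1.35, adjusted p = 0.0461). The Eef1g call was lost in 11 of 19 alternatives (old D1 library 2 or 4 or young D1 library 1, 2 or 3 left out among them) and that of Gas5 in 7 of 18 (old D1 library 4 or young D1 library 1 or 4 left out among them). Those of Eif3f and Nap1l1 were lost in 5 and 2 of 19. Among 12 tested regulators of ribosomal protein mRNA translation, 2 rose and 0 fell, against 5.39% and 5.44% of all genes. Cnbp, a zinc finger protein that binds such mRNAs, rose (1456 ± 186 against 759.5 ± 90.5 TPM, log2 0.87, adjusted p = 0.00111), and so did Mtor (log2 1.62, adjusted p = 0.0431). The Mtor call was lost in 9 of 19 alternatives, among them each young D1 library left out in turn and old D1 library 2 or 4, and without the last its log2 change was 0.89 (adjusted p = 0.194). Of 48 mitochondrial large subunit protein genes, Mrpl30 alone fell (log2 -1.39, adjusted p = 0.0071) and none rose, against 5.44% and 5.39% of all genes. The Mrpl30 call was lost in 4 of 19 alternatives. In D2 neurons no gene of these lists was called with age, against 0.079% of all genes.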

How the data were processed

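TRAP RNA from 16 libraries was amplified with NuGEN Ovation V2, per the labels' protocols; STAR 2.5.1b and RSEM 1.2.20 with mm10 are named in the submitters' processing notes. The deposited files give RSEM expected counts (estimated, 20% of nonzero gene values not whole within 0.005) and TPM per gene and isoform, per the file headers; the sources used here do not give strand or annotation. Expected counts were rounded and fitted with edgeR 4.0.16 (limma 3.58.1, R 4.3.3): filterByExpr, TMM, robust quasi-likelihood test with 1 mean per group over all 16 libraries, and Benjamini-Hochberg adjustment over 13926 genes; a gene was called at an adjusted p under 0.05. The fit was tested on simulated data. Log2 changes are old over young and D1 over D2. Ratios used log2(TPM + 1) and exact permutation tests (SciPy 1.17.1). Non-overlap means that all 4 values of one group lie beyond all 4 of the other.

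GENCODE M21 (GRCm38) supplied names, positions and isoform types for 37693 of 39017 genes. Alternatives were DESeq2 1.42.0, other size factors, no filter, only the compared groups, limma voom with library weights, limma on TPM, added pseudogene counts, a loess trend over GC content and length (span 0.3) removed, leaving out each library, and, chosen after seeing the data, each trend alone and coding isoforms only. The 46 genes and all lists were chosen with earlier results of these data known. Genes were described if fixed by role (Rpl10a, Rplp0, Rplp1, Rplp2, Rpl12, Rpl5, Rpl11, Rpl3, Rpl22, Rpl22l1), if called (at most 10 per direction) or if the most changed in a pair of groups; of related lists, at most 3 called genes per direction, of which some are not reported here. Isoform genes and Rpl6, Rpl8 and Rpl35 were added after their values were seen. Library numbers follow the order of the records. The design text calls a group's libraries biological replicates without saying how animals were pooled, so p-values measure the spread between libraries. Amplified cDNA without molecular identifiers counts copies repeatedly.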

Additional observations from a re-analysis of the deposited data

Results flagged for a closer look

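Among 184 groups of 4 libraries (46 genes in 4 groups), 11 had a highest or lowest TPM value whose gap to the nearest library, over the range of the group, was above Dixon's critical value for 4 values. Chance gives about 1 in 20, or 9.2 of 184. In old D1 libraries these were the lowest values of Rpl15 (132.96 TPM) and Rpl19 (354.85 TPM), both in library 4, the one in which Rpl34 was listed at 0. In young D1 libraries they were the lowest values of Rpl10a (454.53 TPM) and Rpl15 (228.86 TPM), both in library 2, the lowest of Rpl22l1 (77.29 TPM) and the highest of Rpl38 (997.14 TPM), both in library 4, and the highest of Rplp0 (75.91 TPM) in library 3. In old D2 the lowest value of Rplp1 was 365.58 TPM in library 1. In young D2 they were the highest of Rpl26 (314.09 TPM) in library 4, the lowest of Rpl32 (258.96 TPM) in library 1 and the highest of Rpl36 (1242.15 TPM) in library 3.

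The age change of Rplp2 differed between D1 and D2 neurons by -2.206 on the log2 scale in the edgeR test of the difference itself (adjusted p = 0.0264).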

How the results depend on the processing

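No paired analysis was possible because the labels give no replicate numbers shared between groups. Over 79 results, 1091 alternative values kept their direction and side of the threshold, 181 were no longer past it, 15 were newly past it, 71 moved and 33 changed sign; the cause was not tested. With age in D1 neurons, rises among the 46 numbered 13 with GC and length trends removed, 8 with the GC trend alone, 14 with the length trend alone, 0 with D1 libraries alone and 1 with voom. Falls numbered 0, 1, 1, 3 and 4 in that order, and 5 to 14, beside 0 to 2 rises, without single libraries. Over all genes, rises numbered 1212, 1281, 1701, 192 and 392 in the same order, and falls 246, 263, 476, 113 and 155. These are of 13926 genes tested, or 12244 with D1 libraries alone. The median became 0.503 (both trends), 0.242 (GC), 0.562 (length) and -0.524 (coding isoforms), and -0.404 to -0.236 without single libraries. That of all genes became 0.369 (both), 0.379 (GC), 0.416 (length) and -0.081 (coding isoforms). With voom the median of the 46 was -0.27 and that of all genes -0.383. For the difference of age changes, rises numbered 1 with DESeq2 and 4 with the length trend removed. Falls numbered 5 with DESeq2, 2 with limma on TPM and 0 with voom or any trend removed. Over all 13926 genes, 432 were higher with DESeq2 and 458 with the length trend removed. Lower ones over all genes numbered 587 with DESeq2, 124 with limma on TPM and 42 with voom. They numbered 25, 28 and 80 with both trends, the GC trend and the length trend removed. The median became 0.746 (both), 0.581 (GC) and 0.734 (length), where that of all genes became 0.383, 0.397 and 0.42, and without single libraries there were 0 to 1 higher and 0 to 3 lower, with medians of -0.211 to -0.021. For D1 over D2 at 2 years, higher genes numbered 8 with DESeq2, 21 with both trends removed, 18 with either alone, 3 with coding isoforms or no filter, and 2 with the compared groups alone or voom. Lower ones numbered 7 with DESeq2, 0 with both or the GC trend removed, 1 with the length trend, compared groups alone or voom, and 11 with limma on TPM. The median became 0.784 (both), 0.718 (GC) and 0.715 (length), where that of all genes became 0.444, 0.445 and 0.49, and ran from -0.169 to 0.002 without single libraries, which left 2 to 6 higher and 1 to 7 lower. Medians without single libraries were -0.173 to 0.005 for age in D2 and 0.1 to 0.276 in young mice.

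Removing both trends, the GC trend or the length trend moved the median of all genes to 0.369, 0.379 and 0.416 for age in D1. It moved to 0.444, 0.445 and 0.49 at 2 years and to 0.383, 0.397 and 0.42 for the difference. A gene that turned above 0 can thus still lie below the median of all genes. Changes of sign for single genes were these, with both trends, the GC trend and the length trend removed in that order. Rpl10a became 0.87, 0.638 and 0.323 for age in D1, 0.988, 0.89 and 0.5 at 2 years, and 1.306, 1.131 and 0.738 for the difference. Rpl22 became 0.491, 0.197 and 0.833 for age in D1, and Rpl29 0.67, 0.579 and 0.019 at 2 years. With both trends removed, age changes in D1 became 0.003 for Rpl28, 0.104 for Rpl29, 0.265 for Rpl41 and 1.16 for Rpl36 (0.902 with GC alone). Of these, only Rpl36 lay above the median of all genes. With coding isoforms, Rpl12 became -0.662 (age in D1), Rpl13a -0.924 (2 years) and Rpl10a 0.025 (difference), which was 0.185 with voom. Without single libraries the Rpl10a difference ran from -0.165 to 0.105, with further values above 0 of 0.061, 0.077 and 0.043. The D1 age changes ran from -0.071 to 0.249 for Rpl12, from -0.026 to 0.298 for Rpl3 and from -0.268 to 0.087 for Rpl22, with 0.011 in between. The ratio of Rpl10a to the other genes ran from -0.325 to 0.028 without single libraries for age in D1, from -0.506 to -0.315 for age in D2, from -0.673 to -0.470 in young mice and from -0.493 to -0.139 at 2 years. That of Rpl22l1 to Rpl22 ran from 1.073 to 1.616, 0.358 to 0.687, 0.122 to 0.451 and 0.837 to 1.380 in the same order. With 3 libraries against 4 no exact p below 0.0571 is possible.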
